A study of Mus musculus with 21 samples.

Results

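The TWIST1-TCF4 dimer is an integrated, inducible construct that holds the transcription factor TWIST1 with its partner TCF4, and the transcriptome of embryoid bodies in which it was induced was compared with that of the parental line. The comparison takes 6 of the 21 RNA-seq libraries of the study, 3 titled TWIST1-TCF4 dimer induced and 3 titled A2loxCre, and all genes. Both groups are C57BL/6 mouse embryonic stem cells of the A2loxCre line, differentiated as aggregates (embryoid bodies) to day 3, with doxycycline for 16 h. The TCF4 dimer line has the Twist1-Tcf4 dimer coding sequence integrated behind a doxycycline-inducible promoter, and the parental line has no coding sequence integrated. A second line without an induced construct, with the Twist1 monomer integrated and no doxycycline (3 libraries, called the uninduced line here), served as a further control. It differs from the parental line both in its integrated sequence and in doxycycline. The lines with the Twist1-Tcf3 and the Twist1-Tcf12 dimer, each induced for 16 h in 3 libraries, served to show where the TCF4 dimer line stands apart. The remaining groups are titled TWIST1 monomer induced and TWIST1 homodimer induced, each with doxycycline for 16 h in 3 libraries. By its title, the induced monomer group carries the same construct as the uninduced line. For some genes the levels in these groups are given beside the others. Nothing in the labels says how many clones each line comes from, so a difference between lines and an effect of the construct cannot be told apart. Nor do the labels say whether the 3 libraries of a group are separate cultures, so p-values measure the spread between these libraries, which may be technical.

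TWIST1 is a basic helix-loop-helix (bHLH) transcription factor of mesoderm, cranial mesenchyme and neural crest. It binds DNA in pairs, either with itself or with an E-protein such as TCF3, TCF4 or TCF12, at short palindromes called E-boxes (CANNTG). Inhibitors of the Id family lack the DNA-binding region and hold E-proteins in inactive pairs. In the embryo, Nodal, Wnt and FGF signals set up the primitive streak, where T (brachyury) and Eomes mark the cells that go on to mesoderm and endoderm, and Snail factors then drive the transition from epithelium to mesenchyme. Embryoid bodies pass through comparable steps in culture.

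Total counts were 12478869, 11434317 and 15999693 in the TCF4 dimer libraries and between 9067743 and 9699851 in the parental libraries. Levels are given as CPM, the count scaled by library size and TMM factors to a common total, and 3 counts, taken as the floor, correspond to 0.182 to 0.256 CPM in the TCF4 dimer libraries and 0.302 to 0.327 CPM in the parental libraries. Embryonic markers matched the labelled cells: Pou5f1 (Oct4), the core pluripotency factor, stood at 584 ± 37 CPM in the parental and 543 ± 15 CPM in the TCF4 dimer line (SD, n = 3), and Cdh1 (E-cadherin) at 1018 ± 6 and 1055 ± 21 CPM. Mitochondrial genes took 1.97% to 2.38% of counts in the TCF4 dimer libraries and 2.03% to 2.26% in the parental libraries, and ribosomal protein genes 7.10% to 7.41% and 6.86% to 7.27%. One library outside the comparison stood apart. Library 1 labelled TCF12 dimer had 14.5% of its counts in ribosomal protein genes against 6.86% to 7.77% in the other 20 libraries, so tests against that line are given with and without it.

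Levels of the genes joined in the construct matched the labels. Tcf4 was at 41.0, 46.0 and 55.3 CPM in the parental libraries and at 348, 337 and 305 CPM in the TCF4 dimer libraries. Its log2 fold change was 2.79 ± 0.07 (SE, adjusted p 7e-21 by edgeR's quasi-likelihood test with Benjamini-Hochberg adjustment, as for all adjusted p-values here). Twist1 was at 8.93, 8.01 and 7.36 CPM in the parental libraries and at 41.7, 40.3 and 36.1 CPM in the TCF4 dimer libraries (log2 fold change 2.27 ± 0.10). Both genes were thus higher in every library of the labelled line. The construct is labelled as a dimer of Twist1 and Tcf4, and the gain was 31.3 CPM for Twist1 and 282 CPM for Tcf4. Per kilobase of the longest annotated coding sequence (618 bases for Twist1 and 2076 for Tcf4) it was 50.6 and 136.1 CPM, so the 2 gains were unequal on that scale too. Whether the integrated sequence matches these annotated forms is not stated, and a part played by the cells' own copies was not tested. Tcf12, a further E-protein gene, also rose, from 66.0 ± 3.0 to 90.3 ± 4.8 CPM (log2 fold change 0.44 ± 0.06, adjusted p 1.2e-06), but lost the call in 1 of the alternative fits, that of all 21 libraries together. Tcf3 did not pass (log2 fold change 0.08 ± 0.05, adjusted p 0.20). In the lines labelled with the other dimers, these 2 genes showed no excess of the size of Tcf4. Tcf3 was at 151, 152 and 159 CPM in the line labelled TCF3 dimer, under every parental library (161 to 173 CPM) and under the TCF4 dimer line (log2 difference 0.21 ± 0.05, adjusted p 0.0013). Tcf12 was at 53.1, 118 and 108 CPM in the line labelled TCF12 dimer, with library 1 under the parental range (62.8 to 68.8 CPM) and the others above it. It was lower in the TCF4 dimer line than there without library 1 (-0.32 ± 0.07, adjusted p 0.0042) but did not pass with it (-0.04, adjusted p 0.94). Tcf3 thus gave no check of the TCF3 dimer label, and whether reads of the integrated sequence were counted there is not stated.

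In A2loxCre cells the inducible cassette sits beside Hprt, a gene of purine salvage. Hprt stood at 86.0, 81.0 and 81.1 CPM in the parental libraries and at 32.5, 31.9 and 25.6 CPM in the TCF4 dimer libraries, a fall of the log2 level by 1.48 ± 0.07 (adjusted p 6.1e-15). It was lower still in the other groups with an integrated sequence. The uninduced line had 4.55, 3.55 and 3.32 CPM, and group means were 20.5 CPM in the induced monomer line, 14.5 CPM in the homodimer line, 9.23 CPM in the TCF3 dimer line and 8.64 CPM in the TCF12 dimer line. By group mean, the TCF4 dimer line thus had the highest Hprt level of the 6 groups with an integrated sequence, and the parental line the highest of all 7 groups.

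Of 13500 genes tested, 4010 (29.7%) passed an adjusted p of 0.05. Of these, 2009 (14.9% of genes tested) rose and 2001 (14.8%) fell, around a median log2 fold change of -0.0013. Many of these differences were small. The absolute log2 fold change was under 0.5 in 2542 of the called genes, at least 1 in 347 higher and 239 lower genes, and at least 2 in 94 higher and 33 lower genes. The 3 libraries of one group all lay above or all below those of the other in 3813 called genes (28.2% of genes tested). The split of the calls moved with the filter on low counts. Without that filter 2430 genes were higher and 1604 lower, which is 60.2% of calls higher against 50.1%, while the median log2 fold change was 0.030.

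The uninduced line gave a stricter rule. Against it, 6821 of 13568 genes passed (50.3%), 3498 higher (25.8%) and 3323 lower (24.5%), and 2698 of 13346 genes tested in both comparisons (20.2%) passed in one direction against both controls, 1503 higher (11.3%) and 1195 lower (8.95%). Both comparisons use the same TCF4 dimer libraries. Of the 4010 genes called against the parental line, 1065 did not pass against the uninduced line, 50 were not tested there and 197 passed in the opposite direction. Library 1 of the uninduced line held 10255 CPM of the transcript Gm42418 against 71.3 and 83.9 CPM in libraries 2 and 3, and without it 2618 genes passed against both controls.

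**Figure D1:**
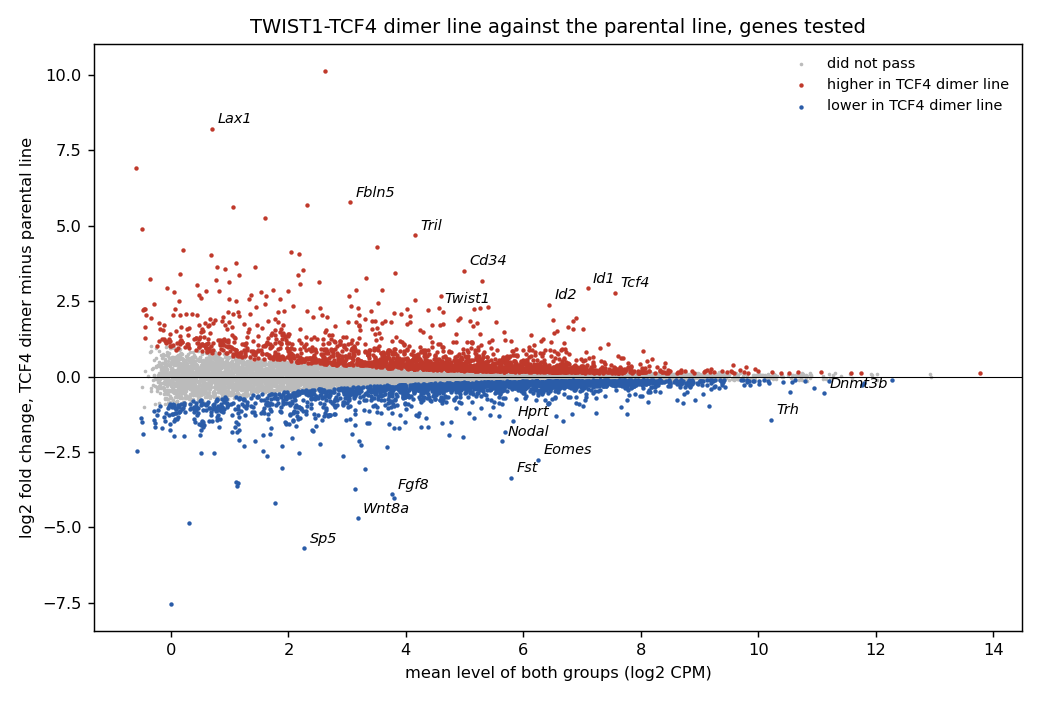
Each point is 1 of 13500 genes, with the mean level of both groups (log2 CPM) on the horizontal axis and the log2 fold change of the TCF4 dimer line against the parental line on the vertical axis. Red points passed as higher (2009 genes), blue points as lower (2001) and grey points did not pass; the largest falls are in streak and Wnt genes such as Wnt8a and Fgf8, and Id1, Id2, Cd34 and Tril lie among the genes that rose. Genes with 0 counts in a group, such as Lax1, stand at a fitted value that is no bound on their change.

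The largest rises among genes of at least 10 CPM included several genes of secreted or cell-surface proteins. Fbln5, which encodes the elastic-fibre protein fibulin 5, was at 0.109, 0.108 and 0.605 CPM in the parental libraries and at 17.7, 16.0 and 15.2 CPM in the TCF4 dimer libraries (log2 fold change 5.79 ± 0.27, adjusted p 1.4e-15). Tril, a co-receptor of Toll-like receptors, was at 1.2, 1.3 and 1.41 CPM and then at 40.2, 34.0 and 29.0 CPM (log2 fold change 4.69 ± 0.18). Tgfbi, a matrix protein induced by TGF-beta, was at 0.871, 1.19 and 1.21 CPM and then at 25.8, 21 and 18.4 CPM (4.28 ± 0.20). For all 3 genes the groups were far apart, and all 3 were also higher than in the uninduced line, by 6.07, 5.61 and 2.18 on the log2 scale. Cd34, a surface sialomucin of blood and endothelial progenitors, rose from 5.44, 5.2 and 4.74 CPM to 63.2, 59.5 and 53.3 CPM (3.51 ± 0.10). Plxna2, a semaphorin receptor, rose from 7.18, 7.36 and 8.77 CPM to 74.1, 74.5 and 63.1 CPM (3.17 ± 0.10). The remaining genes in this set of large rises encode a muscle troponin (Tnnt1, log2 fold change 3.44), the serpin PEDF (Serpinf1, 3.28), a tyrosine phosphatase (Ptpn5, 3.13), a BMP antagonist (Nbl1, 2.88) and a Hedgehog co-receptor (Boc, 2.86). Each of them was higher in every TCF4 dimer library than in any parental library, and each also passed as higher against the uninduced line.

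The inhibitors of bHLH factors rose in nearly every member. Of 9 listed genes of the Id, Hes and Hey families, 8 were tested and 7 passed as higher and 0 as lower, with a median log2 fold change of 1.75 against -0.0013 over all genes tested, and 6 were higher against both controls. The filter keeps a gene that is abundant enough in either group, so counts over tested members of any list leave out genes near the floor in both. Beside the counts of every list stand 14.9% of all genes tested as higher and 14.8% as lower. Against both controls these shares were 11.3% and 8.95%. Id1 was at 32.7, 31.2 and 30.5 CPM in the parental, 29.1, 31.3 and 27.5 CPM in the uninduced and 270, 240 and 215 CPM in the TCF4 dimer libraries (log2 fold change 2.94 ± 0.07 against the parental line, adjusted p 4e-21). Id2 rose from 31.1, 26.2 and 25.8 CPM to 161, 147 and 129 CPM (2.39 ± 0.08). Id3 rose from 40.7, 35.6 and 40.2 CPM to 168, 142 and 122 CPM (1.88 ± 0.09). The 2 controls lay close together for Id1 and Id2, while Id3 was lower in the uninduced line (18.9 to 22.4 CPM) than in the parental line. Id4, the least abundant of the 4, rose from 2.18, 3.79 and 3.22 CPM to 18.5, 15.5 and 11.6 CPM (2.28 ± 0.19). Hes1 and Hes6, repressors of the Hes family, rose less, by 0.69 ± 0.09 and 0.73 ± 0.07 on the log2 scale. Hey2 rose from 0.538 ± 0.335 to 1.71 ± 0.40 CPM (1.63 ± 0.39), but did not pass against the uninduced line (adjusted p 0.13). Hey1 did not pass against the parental line (-0.25 ± 0.15, adjusted p 0.20), and Heyl, at 1, 1 and 2 counts in the parental and 7, 9 and 8 counts in the TCF4 dimer libraries, was under the filter.

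**Figure D2:**
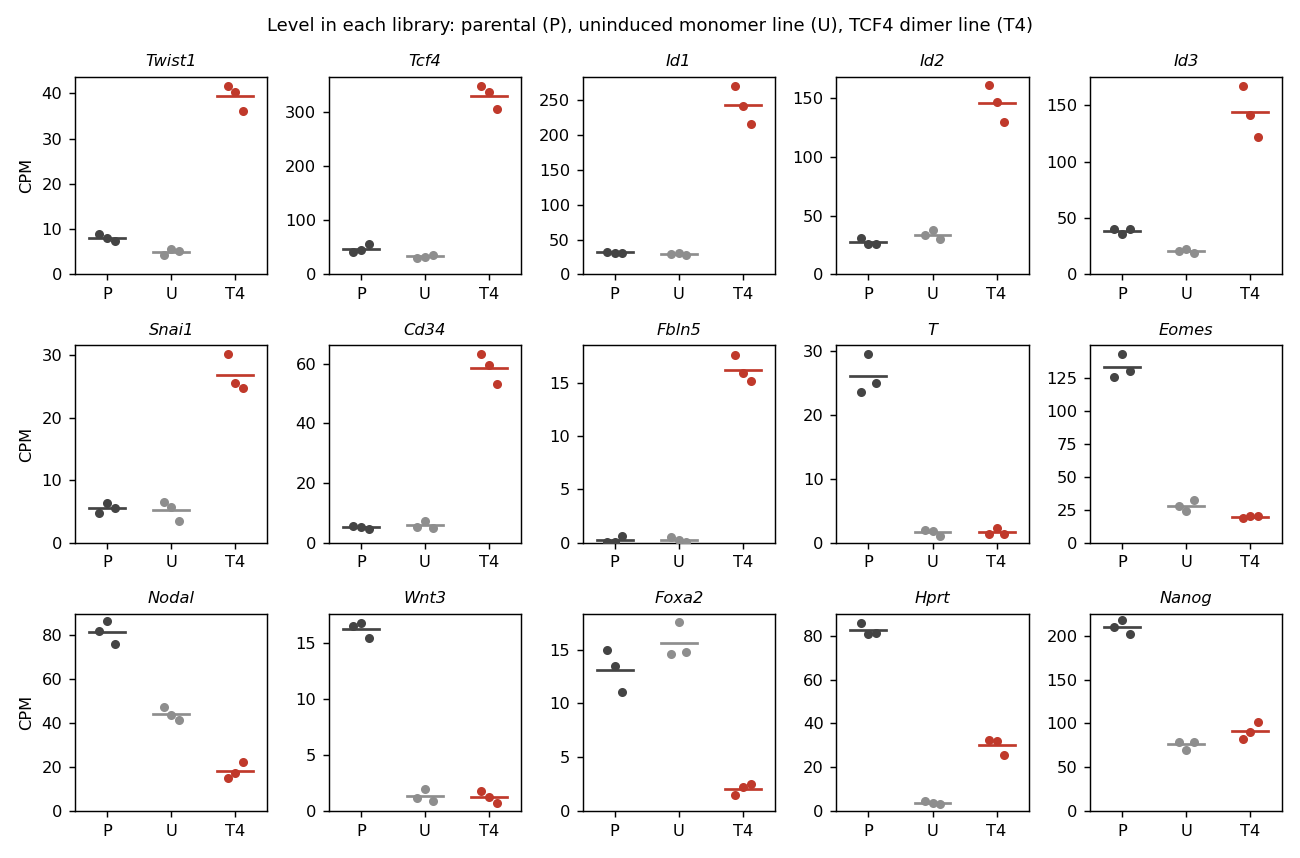
CPM of 15 genes in each of the 3 parental (P), 3 uninduced monomer (U) and 3 TCF4 dimer (T4) libraries, with a line at the group mean and every axis from 0. Id1, Id2, Id3, Snai1, Cd34 and Fbln5 are high in the TCF4 dimer libraries alone of the 3 groups, T, Wnt3 and Nanog are low in both the uninduced and the TCF4 dimer libraries, and Foxa2 is low in the TCF4 dimer libraries alone.

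A few genes appeared from no detected counts. Lax1, which encodes a membrane adaptor of lymphocyte signalling, had 0 counts in each parental library and 53, 32 and 47 counts in the TCF4 dimer libraries (3.25 ± 0.79 CPM). Meox2, a homeobox gene of paraxial mesoderm, had 0 counts in each parental library and 23, 14 and 16 counts (1.32 ± 0.43 CPM). Against the largest floor of a parental library, 0.327 CPM, these levels were at least 9.95-fold and at least 4.06-fold higher. Both genes also had 0 counts in each uninduced library. In the other induced lines Lax1 stood at 3.18 CPM (monomer), 14.3 CPM (homodimer), 5.78 CPM (TCF3 dimer) and 4.22 CPM (TCF12 dimer). Meox2 differed in this respect, with 2.45 and 2.05 CPM in the TCF3 and TCF12 dimer lines but only 0.037 and 0.094 CPM, under the floor, in the monomer and homodimer lines.

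The promoters of 4 risers are shown because they span this range of responses: Lax1 and Meox2, not detected in either control, Ptpn5, from the largest rises, and Snai1, the Snail factor of mesoderm formation. Each sequence is the 250 bases before the RefSeq start on the gene's own strand (GRCm38.p6), 5′ to 3′, with E-boxes of the form CANNTG in capitals. None overlaps an exon of the GENCODE annotation.
Lax1, chr1:133690109-133690358, minus strand: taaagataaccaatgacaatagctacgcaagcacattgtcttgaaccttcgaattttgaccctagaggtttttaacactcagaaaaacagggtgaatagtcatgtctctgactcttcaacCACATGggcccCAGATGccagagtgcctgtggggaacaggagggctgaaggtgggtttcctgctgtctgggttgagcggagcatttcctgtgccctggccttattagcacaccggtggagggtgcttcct
Meox2, chr12:37108290-37108539, plus strand: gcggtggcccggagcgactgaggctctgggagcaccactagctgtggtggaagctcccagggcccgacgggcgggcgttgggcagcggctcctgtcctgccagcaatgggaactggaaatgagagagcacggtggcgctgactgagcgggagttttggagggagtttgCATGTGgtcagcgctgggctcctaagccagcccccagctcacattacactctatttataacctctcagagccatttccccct
Ptpn5, chr7:47133685-47133934, minus strand: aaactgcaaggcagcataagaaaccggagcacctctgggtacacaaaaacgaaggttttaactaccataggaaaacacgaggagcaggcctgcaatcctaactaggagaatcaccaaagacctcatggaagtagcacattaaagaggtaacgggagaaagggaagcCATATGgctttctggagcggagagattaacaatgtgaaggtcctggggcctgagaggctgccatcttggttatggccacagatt
Snai1, chr2:167537945-167538194, plus strand: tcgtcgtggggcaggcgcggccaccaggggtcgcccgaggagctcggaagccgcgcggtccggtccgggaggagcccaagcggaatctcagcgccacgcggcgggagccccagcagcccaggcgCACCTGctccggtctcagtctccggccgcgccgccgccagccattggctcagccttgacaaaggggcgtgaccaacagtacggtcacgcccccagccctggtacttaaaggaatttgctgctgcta
The E-boxes start 130 and 119 bases before the start site in Lax1, 82 bases in Meox2, 84 bases in Ptpn5 and 126 bases in Snai1.

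Such matches are common. Over 9875 tested genes with a RefSeq promoter, 56.5% held at least one CANNTG in the same window (both strands searched), and so did 57.6% of the 217 genes that were higher against both controls with a log2 fold change of at least 1. Single forms of the motif differed more. CATATG, the form in the Ptpn5 promoter, stood in 8 of the 217 promoters (3.69%) and in 1.33% of all, CATCTG (or CAGATG on the other strand) in 14.7% and 9.51%, and CAGCTG in 17.1% and 11.4%. CACCTG, the form in the Snai1 promoter, ran the other way, at 12% of the 217 promoters and 15.7% of all. Of 92 genes lower against both controls with an absolute log2 fold change of at least 1, 62% held a CANNTG. Among these 92 promoters CATATG stood in 2 (2.17%), CATCTG in 12%, CAGCTG in 12% and CACCTG in 20.7%, each also above its share of all. CACGTG, the remaining form counted, was under its share of all (8.68%) in both sets, at 6.91% of the 217 and 3.26% of the 92 promoters. These shares describe the letters in these windows only, and no test was made of them. The 8 genes with CATATG were Fzd1, Hhat, Hivep3, Mef2c, Neurod1, Pcolce, Ptpn5 and St8sia1. Pcolce, an enhancer of procollagen processing, was the most abundant of them, rising from 4.57, 5.52 and 5.54 CPM to 30.7, 29.6 and 30.6 CPM.

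Genes of the primitive streak and mesendoderm were nearly all lower in the TCF4 dimer line. Of 14 tested members (18 listed), 13 passed as lower and 1, Snai1, as higher, with a median log2 fold change of -2.47. T, the streak and notochord factor, was at 23.6, 29.4 and 25.0 CPM in the parental libraries and at 1.34, 2.22 and 1.34 CPM in the TCF4 dimer libraries (log2 fold change -4.03 ± 0.16, adjusted p 7.7e-17). Eomes, which marks the early streak and endoderm, went from 126, 144 and 130 CPM to 18.9, 20.1 and 20.4 CPM (-2.75 ± 0.07). Fgf8, the streak FGF ligand, went from 22.5, 27.5 and 26.2 CPM to 2.28, 1.37 and 1.46 CPM (-3.91 ± 0.16). No TCF4 dimer library came near a parental library in any of these 3 genes. Evx1 (-4.21), Cer1 (-3.48), Mixl1 (-3.06), Foxa2 (-2.64), Gsc (-2.30), Nodal (-2.15), Lhx1 (-1.90), Lefty2 (-1.83), Chrd (-1.15) and Fgf5 (-0.55) fell as well. Strand use in counting is not stated, so reads of Evx1 and of its antisense neighbour cannot be told apart. In these mixed aggregates, fewer cells of a type and less RNA per cell cannot be told apart, here or in any result that follows.

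Which control was used decided part of this result. T was at 1.95, 1.77 and 1.07 CPM in the uninduced line, and the TCF4 dimer line did not pass against it (log2 fold change 0.05, adjusted p 0.90). The same held for Mixl1 (-0.02, adjusted p 0.96), Gsc (0.56, adjusted p 0.18) and Wnt3 (-0.13, adjusted p 0.80). Fgf5, lower than in the parental line, was higher than in the uninduced line (0.19, adjusted p 0.013). Of the 14 members, 7 were lower against both controls. Evx1 and Cer1 were not tested against the uninduced line, so neither could count there, in this or another list. Foxa2, a factor of endoderm and axial mesoderm, was at 14.9, 13.4 and 11.1 CPM in the parental, 14.6, 17.5 and 14.7 CPM in the uninduced and 1.49, 2.22 and 2.49 CPM in the TCF4 dimer libraries, so both controls lay together above it. Nodal was at 81.6, 86.0 and 75.9 CPM in the parental, 47.0, 43.5 and 41.4 CPM in the uninduced and 15.0, 17.2 and 22.1 CPM in the TCF4 dimer libraries, with no overlap between the 3 groups. Over the other induced lines, T had means of 1.19 CPM (monomer), 9.67 CPM (homodimer), 1.6 CPM (TCF3 dimer) and 1.2 CPM (TCF12 dimer), each under the lowest parental library. A T level under that of the parental line was therefore shared by the means of all 6 groups with an integrated sequence, induced or not.

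**Figure D3:**
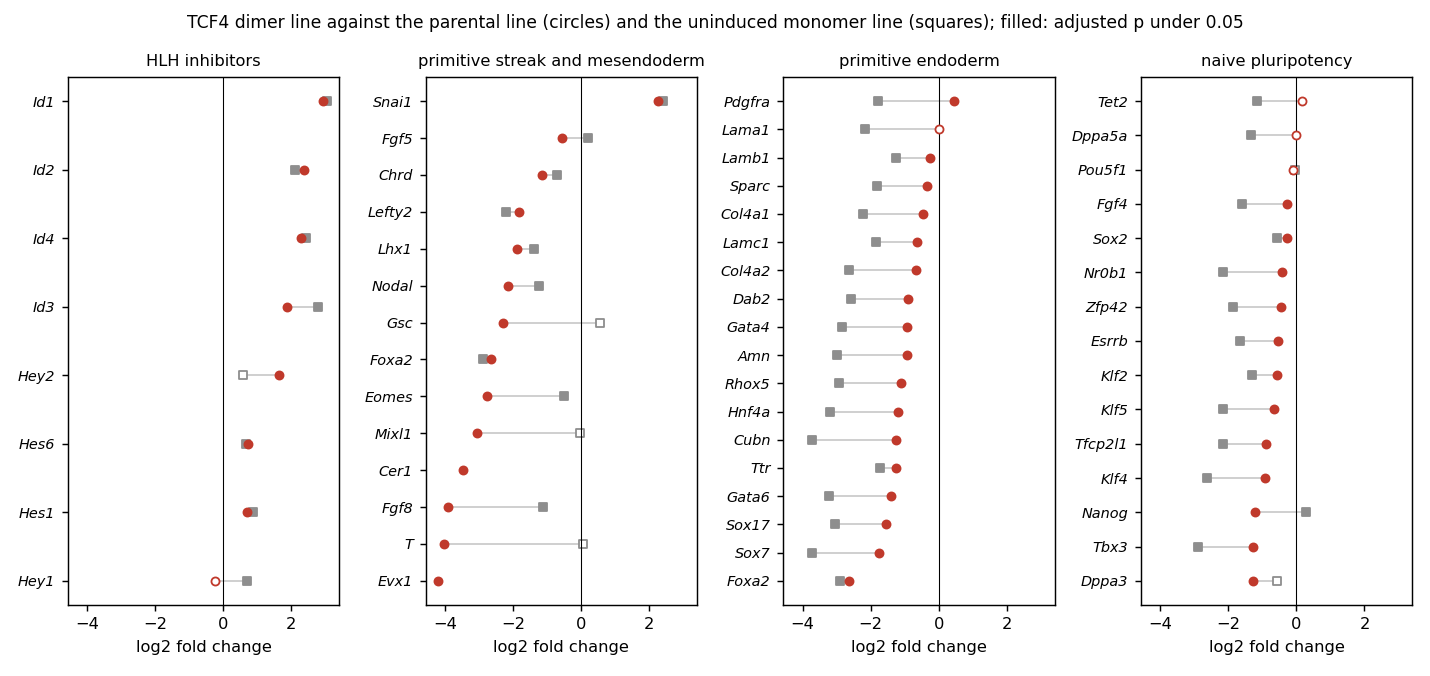
Log2 fold changes of the TCF4 dimer line against the parental line (red circles) and against the uninduced monomer line (grey squares), 1 row for each tested member of 4 gene lists, filled where the adjusted p was under 0.05. Id1, Id2 and Id4 have similar values against both controls, T and Mixl1 lie near 0 against the uninduced line, and primitive endoderm genes are lower against both, further against the uninduced line, except Pdgfra and Lama1.

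Wnt pathway genes followed the same division. Of 20 tested (24 listed), 14 passed as lower and 2 as higher against the parental line (median log2 fold change -0.58). Against both controls 5 were lower and 1 higher. Sp5, Lgr5 and Cdx2, lower than in the parental line, were not tested against the uninduced line and could not count there. The ligand Wnt8a had the largest fall among genes of at least 10 CPM, from 14.5, 20.6 and 17.2 CPM to 0.943, 0.513 and 0.547 CPM (-4.71 ± 0.21), and was also lower than in the uninduced line (-1.40, adjusted p 0.0019). The ligand Wnt3 went from 16.4, 16.8 and 15.4 CPM to 1.81, 1.28 and 0.729 CPM (-3.72 ± 0.19). Sp5, a target of Wnt signalling in the streak, went from 7.62, 11.4 and 9.27 CPM to 0.157, 0.427 and 0 CPM (-5.70 ± 0.35). All 3 genes were at 3 CPM or less in every TCF4 dimer library. Axin2, a feedback inhibitor induced by Wnt signalling, was lower than in the parental line (-1.04 ± 0.08) and higher than in the uninduced line (0.98), and so was the Wnt enhancer Rspo3 (-0.51 and 2.63). The secreted inhibitor Sfrp1 was 1 of the 2 that rose, from 46.8 ± 2.9 to 57.0 ± 2.5 CPM (0.28 ± 0.06), and Notum, a Wnt-inactivating enzyme, was the other (0.93 ± 0.28), but Notum was lower than in the uninduced line (-0.73) and lost the call without parental library 1 (adjusted p 0.072).

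In the Nodal pathway 8 of 15 tested genes (16 listed) were lower and 0 higher, and 6 were lower against both controls. The co-receptor Tdgf1 (Cripto) went from 289, 318 and 306 CPM to 133, 128 and 124 CPM (-1.25 ± 0.05). The antagonists Lefty1 (-1.02 ± 0.07) and Lefty2 (-1.83 ± 0.07) fell too. Receptors and transducers did not pass, with log2 fold changes of 0.01 for Acvr1b, 0.03 for Acvr2a, -0.03 for Acvr2b, 0.16 for Smad2 and -0.14 for Foxh1. Among genes outside the lists, Fst, an inhibitor of activin, had one of the largest falls, from 87.2, 111 and 104 CPM to 9.43, 11.1 and 9.42 CPM (-3.35 ± 0.09). It stood at 12.2, 11.2 and 12.1 CPM in the uninduced line and did not pass there (-0.24, adjusted p 0.11). Apln, the apelin ligand, fell from 21.8, 22.4 and 19.8 CPM to 4.63, 3.25 and 4.74 CPM and did not pass against the uninduced line either (adjusted p 0.071). Pcdh8, a protocadherin of paraxial mesoderm, fell against both, by 2.25 and 1.22 on the log2 scale.

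BMP pathway genes went both ways, with 5 of 15 tested (19 listed) higher, 5 lower, and 4 and 4 against both controls. Over all genes tested, 14.9% were higher and 14.8% lower. The ligand gene Bmp7 rose from 3.05, 3.90 and 3.73 CPM to 19.9, 19.9 and 18.5 CPM (log2 fold change 2.44 ± 0.13). Gdf10, a ligand of the same superfamily, had 1, 1 and 0 counts in the parental and 62, 46 and 56 counts in the TCF4 dimer libraries, a ratio of 56.8 with a 95% exact interval of 15.5 to 473, which covers counting error only. The inhibitor Smad6, induced by BMP signalling, rose from 2.20 ± 0.55 to 4.98 ± 1.01 CPM (1.15 ± 0.22), and Bmp4 from 4.46 ± 1.07 to 8.07 ± 0.85 CPM (0.84 ± 0.17), but Bmp4 did not pass against the uninduced line (-0.31, adjusted p 0.065). Bmp2 (-1.52), Tbx3 (-1.28), Chrd (-1.15), Msx2 (-0.99) and Smad7 (-0.43) were lower, and of these Msx2 lost the call without parental library 3 (adjusted p 0.18) or TCF4 dimer library 2 (0.056). Bmpr1a, Bmpr2, Bambi, Grem1 and Msx1 did not pass.

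**Figure D4:**
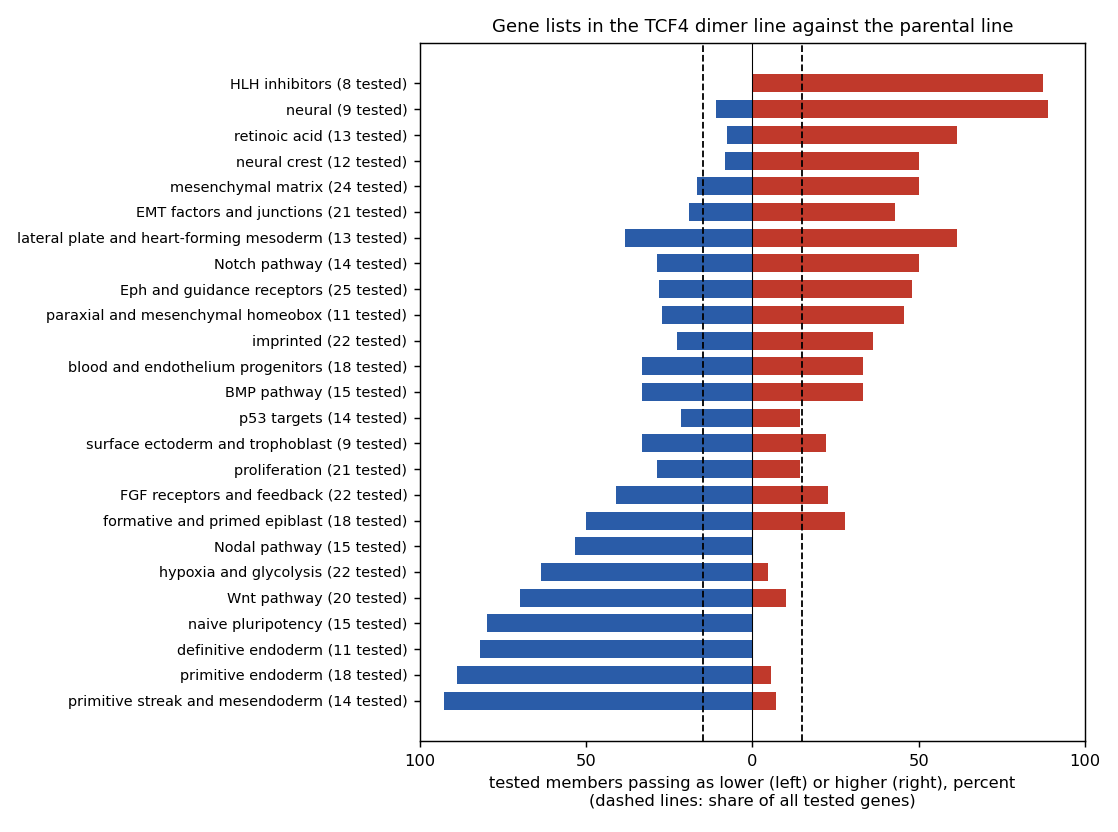
For each gene list with at least 8 tested members, the percent passing as higher (red, right) and as lower (blue, left) in the TCF4 dimer line against the parental line, with dashed lines at the share of all tested genes (14.9% and 14.8%). The inhibitors of bHLH factors and the neural list lie furthest to the right, and the primitive streak and primitive endoderm lists furthest to the left.

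Genes of the transition from epithelium to mesenchyme went both ways. Of 21 tested (22 listed), 9 passed as higher and 4 as lower, and 8 and 4 against both controls. Among all genes tested 14.9% passed as higher and 14.8% as lower, so the count of lower genes was near that share. The Snail and Zeb factors rose. Snai1, whose promoter is given above, was at 4.79, 6.39 and 5.54 CPM in the parental, 6.50, 5.74 and 3.41 CPM in the uninduced and 30.2, 25.5 and 24.8 CPM in the TCF4 dimer libraries (log2 fold change 2.26 ± 0.12, adjusted p 5.7e-14). Snai2 rose from 0.327, 0 and 0.202 CPM to 2.91, 3.08 and 3.10 CPM (4.02 ± 0.43), Zeb1 from 1.09, 1.30 and 1.61 CPM to 5.81, 5.47 and 3.64 CPM (1.85 ± 0.25), and Zeb2 from 7.29, 9.42 and 10.8 CPM to 15.9, 18.3 and 15.2 CPM (0.82 ± 0.13). Cdh11, a cadherin of mesenchyme, rose from 11.1 ± 0.7 to 36.7 ± 2.3 CPM (1.72 ± 0.09), and Vim, the mesenchymal filament, from 96.2 ± 6.7 to 142 ± 6 CPM (0.55 ± 0.05). The main epithelial genes did not pass. Cdh1 had a log2 fold change of 0.05 ± 0.04 (adjusted p 0.44) and Epcam -0.11 ± 0.05 (adjusted p 0.12). Cdh2, the mesenchymal cadherin, did not pass either (0.10 ± 0.07, adjusted p 0.29). Against the uninduced line Cdh1 was higher (0.47). The 4 lower genes were of junctions and keratin, Krt18 (-0.48), Cldn7 (-0.45), Ocln (-0.42) and Cldn6 (-0.36), while the claudin gene Cldn4 (0.88 ± 0.08), the keratin gene Krt8 (0.34 ± 0.06) and the epithelial splicing factor gene Esrp1 (0.14 ± 0.05, adjusted p 0.0499) rose. Krt8 did not pass against the uninduced line (0.10, adjusted p 0.13). The epithelial transcription factor genes Grhl2 (-0.06, adjusted p 0.47) and Ovol2 (0.18, adjusted p 0.43) did not pass.

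Matrix genes of mesenchyme rose in 12 of 24 tested (26 listed) and fell in 4, with 11 and 3 against both controls. The falls were near the share of all genes tested (14.8% lower, with 14.9% higher). Mmp2, a gelatinase, rose from 69.7, 62.9 and 60.9 CPM to 195, 191 and 195 CPM (1.58 ± 0.05), and stood at 29.7 to 33.1 CPM in the uninduced line. Dcn (decorin, 1.89 ± 0.33), Loxl1 (1.35 ± 0.21), Lox (1.30 ± 0.31), Col1a2 (1.07 ± 0.18) and Fbln1 (0.99 ± 0.08) rose too. Loxl1 and Lox encode enzymes that cross-link collagen and elastin. The 4 that fell were Col4a2 (-0.67), Tagln (-0.58), Col4a1 (-0.46) and Sparc (-0.33), and of these Tagln was higher than in the uninduced line (0.88). Col4a1, Col4a2 and Sparc are also in the primitive endoderm list. Neural crest genes rose in 6 of 12 tested (16 listed) and fell in 1, and the 6 were higher against both controls. They were Snai2, Pax3 (3.21 ± 0.38), Ngfr (2.66 ± 0.17), Sox9 (2.34 ± 0.22), Ets1 (1.79 ± 0.09) and Zic1 (1.31 ± 0.18). Ets1, an ETS-family factor, was the most abundant, going from 15.3, 14.7 and 19.1 CPM to 61.1, 60.1 and 50.9 CPM. Sox10 (0.53 ± 0.36), Tfap2a (0.40 ± 0.31) and Foxd3 (-0.02 ± 0.06), further crest genes, did not pass, and Tfap2c fell (-1.13 ± 0.21).

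Of 20 listed genes of lateral plate and heart-forming mesoderm, 13 were tested, and 8 passed as higher and 5 as lower, with 6 and 4 against both controls. Hand1, a bHLH factor of this tissue and known partner of E-proteins, rose from 0.435, 0.433 and 0.202 CPM to 3.53, 2.22 and 2.19 CPM (2.85 ± 0.39). Hand2 was under the filter, with 0, 1 and 1 counts in the parental and 18, 12 and 14 counts in the TCF4 dimer libraries, a ratio of 15.3 (95% exact interval 3.98 to 130 for counting error); in the fit without the filter its adjusted p was 8.1e-07. Wt1, the zinc-finger factor of coelomic epithelium, rose from 5.12, 5.63 and 4.74 CPM to 25.1, 23.3 and 19.7 CPM (2.12 ± 0.13). Prrx2 (1.98), Prrx1 (1.58), Isl1 (1.52), Mef2c (1.28), Ahnak (0.50) and Pdgfra (0.44) rose as well, but Ahnak and Pdgfra were lower than in the uninduced line (-0.49 and -1.78). Mab21l2 (-2.12), Gata6 (-1.42), Tbx3 (-1.28), Gata4 (-0.92) and Tbx20 (-0.81) fell, and Gata4 and Gata6 also belong to the primitive endoderm list. Tbx20 lost the call without parental library 1 or 2 or TCF4 dimer library 2 (adjusted p 0.061 to 0.22), and Pdgfra without parental or TCF4 dimer library 1 (0.062 and 0.067).

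Progenitor genes of blood and endothelium did not move as one. Of 18 tested (20 listed), 6 passed as higher and 6 as lower, beside 14.9% and 14.8% of all genes tested. Against both controls 3 were higher and 4 lower. Beside Cd34, the higher genes included Fli1, an ETS factor of blood and vessels, from 0.218, 0.108 and 0.403 CPM to 3.69, 2.39 and 3.46 CPM (3.64 ± 0.40), and Kdr, the VEGF receptor of mesodermal progenitors, from 2.18, 1.19 and 3.12 CPM to 6.6, 5.89 and 5.04 CPM (1.40 ± 0.23). Sox18, Cdh5 and Tek passed only narrowly (adjusted p 0.044, 0.045 and 0.028) and each lost the call when any of 4 or 5 single libraries was left out, parental libraries 2 and 3 and TCF4 dimer library 2 among them for all 3 genes, with an adjusted p of up to 0.24 for Sox18, 0.25 for Cdh5 and 0.11 for Tek. Against the uninduced line Cdh5 was lower (-1.12, adjusted p 2.6e-05), and Sox18 and Tek did not pass (adjusted p 0.67 and 0.25). Runx1 (-1.77), Sox7 (-1.76) and Sox17 (-1.57) fell, and Sox7 and Sox17 also belong to the primitive endoderm list. The commitment factors Etv2 (0.51 ± 0.22), Tal1 (0.09 ± 0.17), Lmo2 (-0.15 ± 0.27) and Gata2 (0.66 ± 0.26) did not pass. Homeobox genes of paraxial and other mesenchyme were higher in 5 of 11 tested (23 listed) and lower in 3, with 5 and 2 against both controls. The risers were Meox2, Pax3, Prrx2, Prrx1 and Dlx3 (1.15 ± 0.36), and Six2 (-1.28) and Msx2 (-0.99) were among those that fell. Without single libraries, Dlx3 (parental library 1 or 3, adjusted p 0.078 and 0.056), Six2 (parental library 2, 0.16) and Msx2 (parental library 3, 0.18) lost the call.

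FGF pathway genes were higher in 5 of 22 tested and lower in 9, with 4 and 8 against both controls. Over all genes tested, 14.9% were higher and 14.8% lower. The receptor genes Fgfr1 (185, 186 and 185 CPM, then 249, 247 and 271 CPM, log2 fold change 0.46 ± 0.05) and Fgfr2 (0.88 ± 0.11) rose, and Fgfr3 and Fgfr4 did not pass. The ligand genes Fgf8, Fgf10 (-1.47), Fgf17 (-0.69), Fgf5 (-0.55) and Fgf4 (-0.28) fell, Fgf17 losing the call when any library but TCF4 dimer library 1 was left out (adjusted p 0.059 to 0.17). Fgf3 was higher (0.85, adjusted p 0.026) but lower than in the uninduced line (-0.82), and it lost the call without parental library 2 or 3 or TCF4 dimer library 2 (adjusted p 0.071 to 0.22). Fgf15 did not pass (0.05, adjusted p 0.69). Feedback genes divided, with Spred1 (0.71) and Dusp6 (0.33) higher and Spry2 (-0.88) lower. Notch pathway genes were higher in 7 of 14 tested (18 listed) and lower in 4, and 5 and 0 against both controls. The ligand gene Dll3 rose from 18, 17.3 and 16.9 CPM to 36.1, 40.3 and 39.1 CPM (1.14 ± 0.08), the glycosyltransferase gene Lfng from 4.44 ± 0.48 to 10.2 ± 1.2 CPM (1.18 ± 0.15) and the receptor gene Notch1 from 19.7 ± 2.4 to 31.3 ± 2.7 CPM (0.67 ± 0.09). Nrarp (-1.21), Mfng (-0.48), Notch3 (-0.34) and Jag2 (-0.27) fell, and Nrarp was not tested against the uninduced line. Eph and guidance genes were higher in 12 of 25 tested (28 listed) and lower in 7, with 10 and 2 against both controls. Epha3, a receptor of ephrins, rose from 0.871, 0.325 and 0.101 CPM to 9.27, 7.52 and 6.56 CPM (4.15 ± 0.32) and, with Plxna2, had the largest rise of this list. Ephb4 rose by 0.91 ± 0.05, and Epha2 (-1.32), Ntn1 (-1.04) and Epha1 (-0.92) fell, Epha1 being higher than in the uninduced line (0.64).

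Naive pluripotency genes were lower in 12 of 15 tested (16 listed) and higher in 0, with 10 lower against both controls and a median log2 fold change of -0.53. Nanog was at 210, 218 and 202 CPM in the parental and at 81.8, 90.6 and 101 CPM in the TCF4 dimer libraries (-1.20 ± 0.06), but at 78.8, 70.1 and 78.9 CPM in the uninduced line, against which it was higher (0.28, adjusted p 0.0046). Nanog means in the other 4 induced lines lay between 56.4 and 70.7 CPM, well under every parental library. Klf4 (-0.93), Tfcp2l1 (-0.90), Klf5 (-0.67), Klf2 (-0.58) and Esrrb (-0.53) fell against both. Pou5f1 (-0.11 ± 0.05, adjusted p 0.071) did not pass. Formative and primed epiblast genes went both ways, 5 of 18 higher and 9 lower, with 4 and 4 against both controls. Dnmt3b, a DNA methyltransferase and the most abundant of them, fell from 2679, 2608 and 2699 CPM to 1863, 1844 and 1735 CPM (-0.56 ± 0.04), and L1td1 (-0.77) and Zic2 (-0.63) fell. Of these, Zic2 did not pass against the uninduced line (0.15, adjusted p 0.057). Sox4 (0.73), Sox3 (0.47), Epha4 (0.36) and Otx2 (0.22) rose against both controls.

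Endoderm genes were lower almost throughout. Of 18 primitive endoderm genes tested (20 listed), 16 passed as lower, and the same 16 were lower against both controls. Pdgfra rose (0.44 ± 0.13) and Lama1, a laminin chain, did not pass (0.01 ± 0.05). The transcription factor genes Sox7 (-1.76), Sox17 (-1.57), Gata6 (-1.42) and Hnf4a (-1.19) and Cubn, the endocytic receptor cubilin (148, 176 and 157 CPM, then 66.8, 71.0 and 64.5 CPM, -1.26 ± 0.06), were among them. The summed level of the list was 1669 to 1711 CPM in the parental and 1140 to 1209 CPM in the TCF4 dimer libraries, and its part in other falls was not tested. The definitive endoderm list shares Sox17 and Foxa2 with the primitive endoderm list, and Foxa2, Cer1 and Gsc with the primitive streak list. Definitive endoderm genes were lower in 9 of 11 tested (12 listed) and higher in 0, 5 of them against both controls. Trh, a hormone gene that was the most abundant of the list, went from 1728, 1770 and 1698 CPM to 606, 590 and 742 CPM (-1.43 ± 0.06), the largest loss of CPM of all genes tested, but was higher than in the uninduced line (0.38, adjusted p 0.00022).

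Neural genes were higher in 8 of 9 tested (14 listed) and lower in 1, and the 8 were higher against both controls. Bhlhe22, a neuronal bHLH repressor, rose from 0.871, 0.433 and 1.01 CPM to 5.66, 7.43 and 4.50 CPM (2.86 ± 0.29), Ncam1 from 3.17 ± 0.43 to 9.28 ± 0.71 CPM (1.54 ± 0.16) and Tubb3, the neuronal tubulin, from 45.6, 33.1 and 38.0 CPM to 105, 98.6 and 99.3 CPM (1.37 ± 0.07). Neurod1, a bHLH factor, rose from 4.28 ± 0.45 to 9.64 ± 1.06 CPM (1.16 ± 0.15). Nes, the progenitor filament nestin, was the 1 that fell (-0.22 ± 0.06). The neural progenitor gene Hes5 stayed near the floor, with 4 counts in all in the parental and 2 in the TCF4 dimer libraries. Retinoic acid genes rose in 8 of 13 tested (17 listed) and fell in 1, with 7 and 1 against both controls. The carrier and uptake genes Stra6 (1.29), Crabp2 (0.81) and Crabp1 (0.68) rose, and Cyp26a1, the enzyme that breaks retinoic acid down, fell from 14.8, 16.1 and 13.9 CPM to 4.08, 2.39 and 3.64 CPM (-2.13 ± 0.15). Of 32 Hox genes only Hoxd13 was above the filter, and it did not pass (0.29 ± 0.21).

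Genes of glycolysis and the hypoxia response were lower in 14 of 22 tested (23 listed) and higher in 1, with 13 and 1 against both controls, mostly by small amounts (median log2 fold change -0.22). The glucose transporter gene Slc2a3 fell from 536, 566 and 531 CPM to 268, 284 and 334 CPM (-0.89 ± 0.06), Ndrg1 by 1.28 ± 0.15, Bnip3 by 0.73 ± 0.11 and Pdk1 by 0.72 ± 0.07 on the log2 scale, and Ddit4 rose (0.69 ± 0.06). Pim2, a survival kinase, was among the largest losses of CPM, from 751, 797 and 742 CPM to 403, 379 and 375 CPM (-0.99 ± 0.05), but did not pass against the uninduced line (-0.04, adjusted p 0.56). Genes of p53 were higher in 2 and lower in 3 of 14 tested, and proliferation genes higher in 3 and lower in 6 of 21. Both are small counts, beside 14.9% and 14.8% of all genes tested. In both directions together, 35.7% of the p53 and 42.9% of the proliferation genes passed, beside 29.7% of all. The 6 lower proliferation genes exceeded the 14.8%, and 5 proliferation genes were lower against both controls. Of the proliferation genes, Ccnd1 fell from 136, 135 and 138 CPM to 91.7, 85.6 and 79.3 CPM (-0.68 ± 0.05). Imprinted genes were higher in 8 and lower in 5 of 22, with 6 and 1 against both controls. Nnat rose from 15.6, 12.1 and 11.5 CPM to 71.6, 60.7 and 59.7 CPM (2.29 ± 0.10), Peg3 rose by 0.68 ± 0.05, and Mest fell from 67.9 ± 3.9 to 27.6 ± 2.6 CPM (-1.31 ± 0.07), each also against the uninduced line. Meg3, Rian and Mirg, neighbours in the same imprinted domain, fell against the parental line (-0.69, -0.57 and -0.77), but Meg3 and Mirg did not pass against the uninduced line and Rian was higher than there (0.17).

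The TCF4 dimer line was then set directly against the lines with the 2 other heterodimers. Against the TCF3 dimer line, 5660 of 13812 genes (41%) passed, 2680 of them higher in the TCF4 dimer line (19.4%) and 2980 lower (21.6%). Against the TCF12 dimer line 0 of 13686 genes passed in edgeR, with 898 at an unadjusted p under 0.05 (6.56%) and 41 passing in DESeq2. Without library 1 labelled TCF12 dimer, 588 of 13935 genes (4.22%) passed, 223 as higher (1.6%) and 365 as lower (2.62%). As no gene passed against both lines in the full fit, the genes named here were chosen after their values were seen. Without that library, 160 genes stood higher and 276 stood lower than in both others.

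The ranking here takes genes tested in both the parental and the TCF3 dimer comparison, with separated libraries and at least 10 CPM in the higher group. Among them, Tcf4 had the largest excess passing over the line labelled TCF3 dimer, at 2.66 ± 0.06 on the log2 scale. Ranked in the same way against the TCF12 dimer line without library 1, Tcf4 again had the largest excess, at 2.54 ± 0.07. With library 1 the excess over the TCF12 dimer line was 2.73 and did not pass (adjusted p 0.055). Cd34, high in all 3 lines, was lowest in the TCF4 dimer line, at 53.3 to 63.2 CPM against 112 to 152 CPM in the TCF3 dimer line (log2 difference -1.18 ± 0.08) and 167, 145 and 125 CPM in the TCF12 dimer line (-1.20 ± 0.07 without library 1 and -1.32, adjusted p 0.22, with it). Snai1 was at 24.8 to 30.2 CPM against 34.1 to 60.5 CPM in the TCF3 and 37.1 to 78.6 CPM in the TCF12 dimer line, with no overlap. The log2 differences were -0.76 ± 0.14 against the TCF3 and -0.85 ± 0.13 against the TCF12 dimer line without library 1. With that library Snai1 did not pass (-1.13, adjusted p 0.60). Its mean was 4.96 CPM with the monomer induced and 4.50 CPM with the homodimer induced, under the parental mean of 5.57 CPM. Serpinf1, at 18.1 ± 3.2 CPM in the TCF4 dimer line, was at 54.4 ± 21.5 CPM in the TCF3 dimer line and at 85.0, 42.1 and 33.5 CPM in the TCF12 dimer libraries (log2 difference -1.07 ± 0.11 without library 1 and -1.57, adjusted p 0.60, with it). Its mean was 3.07 CPM with the monomer and 2.30 CPM with the homodimer induced, above the parental mean of 1.82 CPM. Lhx2, a LIM-homeobox gene, was also lower, at 3.38, 3.42 and 2.85 CPM against 9.49, 6.79 and 8.45 CPM (-1.37 ± 0.17) and 10.8, 11.6 and 10.8 CPM (-1.80 ± 0.16 without library 1 and -1.79, adjusted p 0.055, with it). Sox7, a factor of endoderm, was lower than in the TCF3 dimer line, at 1.81 to 2.92 CPM against 17.3, 21.1 and 19.5 CPM (-2.99 ± 0.15, adjusted p 4.2e-12). In the TCF12 dimer line Sox7 was at 1.68, 3.93 and 3.95 CPM, and it did not pass there (adjusted p 0.093 without library 1).

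**Figure D5:**
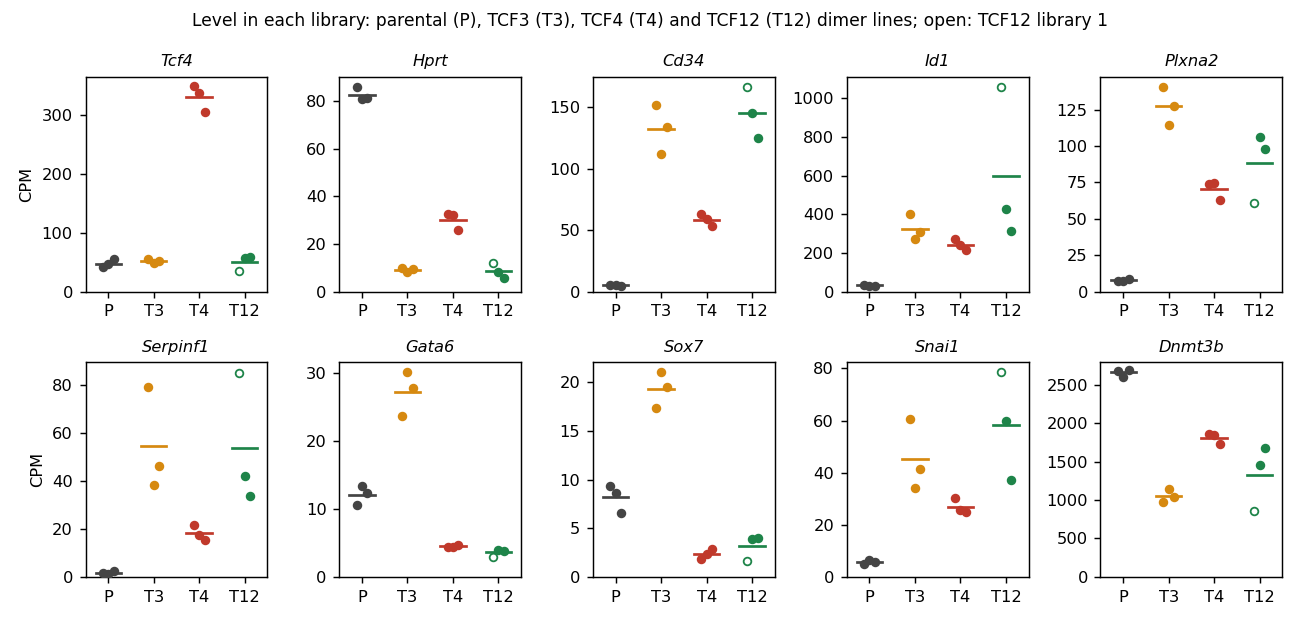
CPM of 10 genes in each library of the parental (P), TCF3 (T3), TCF4 (T4) and TCF12 (T12) dimer lines, with a line at the group mean, every axis from 0, and an open circle for TCF12 library 1. Tcf4 and Hprt are higher in the TCF4 dimer than in the other dimer libraries, Cd34, Serpinf1 and Snai1 are lower, and Gata6 and Sox7 are high in the TCF3 dimer libraries but not in the TCF4 or TCF12 dimer libraries.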

How the data were processed

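RNA-seq libraries (TruSeq mRNA kit, per the labels' protocols) were deposited by the authors as 1 table of raw counts per sample, listing 48321 gene symbols. Per the submitters' processing notes, FastQC, TopHat2 and HTSeq and the builds mm10 and GRCm38 were used; versions, annotation and strand setting are not given in the sources used here. In 18 of the 21 deposited files, 25 symbols had become dates, so files were joined by position. The 3 files without dates are those of the TCF12 dimer.

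From these deposited counts, each pair of groups was tested on its 6 libraries with edgeR 4.0.16 (R 4.3.3, limma 3.58.1), with TMM factors, the filterByExpr filter (a count of 10, a total of 15), the quasi-likelihood F-test and Benjamini-Hochberg adjustment at 0.05. Standard errors were derived from F. CPM values use TMM factors over all 21 libraries. Intervals and floors (3 counts) cover counting error only, since without molecular identifiers a read is not an independent molecule. The comparison with the parental line was also run on simulated counts for 13500 genes. It recovered 58%, 90%, 98% and 100% of genes changed 1.2-, 1.5-, 2- and 4-fold, and 4.95% of its calls were unchanged genes. The 50 genes changed at each fold were drawn from the more abundant genes, so recovery of genes at low counts was not measured. Far fewer genes were changed than were called in the data, so the share of unchanged genes may differ there.

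The genes named were, per direction, the 12 largest folds and 6 largest CPM differences among called, separated genes of at least 10 CPM in the higher group, genes with 0 parental counts, the construct genes and Hprt, and up to 6 called members per list, with further members and genes added after their values were seen. The comparison and the lists were chosen with earlier results of these data known. Some genes within that rule are not reported here. Promoters came from RefSeq (GRCm38.p6), matched by symbol for 9875 of 13500 genes. Lengths came from GENCODE M21. Alternatives were DESeq2 1.42.0, other scalings (RLE, library size alone) and filters, fits of 21 and 20 libraries, the replicate block, thinned counts and leaving out each library.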

Additional observations from a re-analysis of the deposited data

Results flagged for a closer look

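For 11 of the genes named for their size of change or as construct genes, the TCF4 dimer line differed from both other heterodimer lines in the same direction. Each was tested directly (edgeR, adjusted over all genes), with library 1 labelled TCF12 dimer left out, and none passed against the TCF12 dimer line with it. Higher in the TCF4 dimer line were Tcf4, by 2.66 on the log2 scale against the TCF3 dimer line and 2.54 against the TCF12 dimer line, Hprt, by 1.69 and 2.09, Trh, by 1.05 and 0.58, and Dnmt3b, by 0.79 and 0.22. Of these, Hprt, Trh and Dnmt3b had fallen against the parental line, so their levels in the TCF4 dimer line lay nearer to it. Lower were Serpinf1, with log2 differences of -1.61 and -1.07, Cd34, with -1.18 and -1.20, Tgfbi, with -0.88 and -0.54, Plxna2, with -0.86 and -0.53, Boc, with -0.67 and -0.49, Id1, with -0.43 and -0.60, and Tcf12, with -0.21 and -0.32. These 7 genes had risen against the parental line in the TCF4 dimer line.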

How the results depend on the processing

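Against the parental line 4010 genes passed (2009 higher, 2001 lower); the fit of all 21 libraries called 1839 (1027 higher, 812 lower), DESeq2 called 1375 higher and 1310 lower, and leaving out single libraries gave 3126 to 3748 calls (1610 to 1968 higher, 1505 to 1784 lower). The 21-library fit called 1292 genes against both controls and 2819 against the TCF3 dimer line; leaving out single libraries gave 2193 to 2624 and 4772 to 5172, and 5758 to 6764 against the uninduced line. Against the TCF12 dimer line, where 0 passed, DESeq2 called 41, no filter 5, thinned counts 1, the fits of 21 and 20 libraries 464 and 687, and leaving out single libraries 0 to 588, the highest without TCF12 library 1. Without TCF12 library 1, the 20-library fit called 4046 genes against the parental line, 2796 against both controls and 5828 against the TCF3 dimer line. The cause of these differences was not tested. Replicate numbers did not pair the libraries: deviations of same-numbered TCF4 dimer and parental libraries correlated at -0.052, 0.033 and -0.017, and with the replicate block 3878 genes passed (1945 higher, 1933 lower). Over 212 named genes, 3006 of 3170 values under alternatives kept direction and side of the threshold, 164 lost the call and 0 reversed; 156 genes stayed on their side of the threshold throughout. The 21-library fit (48 genes) and DESeq2 (23) lost the most.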

Other observations

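Small shifts of whole chromosomes stood beside the gene-level results. Over 520 genes of chromosome 8 with a mean of at least 10 CPM, the median log2 difference of TCF4 dimer libraries 1 to 3 from the parental mean, relative to all such genes, was 0.065, 0.053 and 0.092, and 27.5% passed as higher, compared with 15.9% of all 8696 genes at that level with a chromosome. Over 357 such genes of chromosome 15 it was -0.050, -0.057 and -0.054, and 23.8% passed as lower, compared with 17.0% of all. On chromosome X, over 303 such genes, it was -0.027, -0.029 and -0.057, and 25.1% passed as lower. Their part in the results was not tested.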
